A study of Triticum aestivum with 15 samples.

Results

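The third wheat leaf after 7 days without iron was set against the first leaf on day 0, the last point of the iron-replete phase. The comparison rests on 6 of the 15 libraries of the study, 3 per group, chosen by the day and leaf given in their labels. All plants were bread wheat (Triticum aestivum) of the cultivar Fielder, recorded as wild type and grown in hydroponic boxes. The day 7 leaves came from plants that had spent 12 days on 50 µM iron, given as NaFe-EDTA, followed by 7 days on 0 µM iron. The day 0 leaves came from plants at the end of those 12 replete days. Each group carries the same 3 plant numbers, here plants 1, 2 and 3, so the values describe 3 plants. Leaf position, plant age and iron supply changed together between the groups and cannot be told apart. The comparison held no leaf of that position grown with iron.

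Iron is needed at several steps of chlorophyll synthesis and in the iron-sulphur clusters and haem groups of the photosynthetic electron chain, so leaves hold much of a shoot's iron in their chloroplasts. It moves poorly out of older leaves, and young leaves of a deprived cereal therefore pale first. Successive leaves of a cereal shoot also differ in age and developmental phase at any harvest. Bread wheat is hexaploid and carries related copies of most genes on its A, B and D subgenomes. The deposited table lists genes by identifier only. Of its 269207 identifiers, 0 matched the available gene name table, so no function is given to any gene and the tissue labels were not checked against marker genes. The identifier carries the chromosome and a number that follows gene order along it.

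Library totals ran from 20345313 to 23343568 counts on day 7, against 15434838 to 19845743 counts on day 0. On the first principal component of the 12 leaf libraries (54.1% of the variance), 1 library of each group stood apart. The day 7 libraries of plants 1, 2 and 3 lay at 192, 164 and 45.6. The day 0 libraries lay at -83.4, -214.7 and -215. Plant 3 on day 7 and plant 1 on day 0 were thus the libraries of each group nearest to the other group. The correlation of log2 levels between day 0 libraries was 0.895 for plants 1 and 2 and 0.882 for plants 1 and 3. It was 0.904 for plants 2 and 3, so plant 1 stood apart little by this measure. On day 7 it was 0.941 for plants 1 and 2, against 0.866 and 0.904 with plant 3. Results that rest on them are given with and without this pair.

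The change between the leaves was broad and ran in both directions in similar numbers. Of 62841 genes tested, 9006 were higher and 8726 lower in the third leaf on day 7 than in the first leaf on day 0, which is 14.3% and 13.9% of the genes tested and 28.2% together. A gene was called when edgeR's quasi-likelihood test gave a Benjamini-Hochberg adjusted p under 0.05 in a fit of all 12 leaf libraries. By at least 2-fold, 5955 genes rose and 5359 fell, but this order turned in 7 of 15 alternatives, among them the fit of only the 6 libraries (2867 rose and 3790 fell). It also turned among genes with counts in both groups (5069 and 5150). Fitted folds of genes at 0 in a whole group depend on the prior count. With counts in both groups, 801 genes rose and 138 fell by at least 16-fold in the main fit, the only fit for which this was counted. Counts in a group can still come from 1 library: 517 of all genes called higher had day 0 counts in plant 1 only. The median log2 fold change was 1.37 among the genes called higher and -1.17 among those called lower, beside 0.09 over all genes tested. In bulk tissue such as this, fewer cells of a type and less RNA per cell cannot be told apart.

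Of the genes called higher, 95.3% were higher on day 7 within each of plants 1, 2 and 3, and of the genes called lower 97.4% were lower within each. The calls rest on the same libraries, so this describes them and is no separate evidence. Over all genes tested, 29.1% were higher and 24.4% lower within each plant. The 3 day 7 values lay wholly above the 3 day 0 values for 7965 (88.4%) of the genes called higher, and wholly below for 8352 (95.7%) of those called lower. Over all genes tested, called or not, 12756 (20.3%) lay wholly above and 11915 (18.96%) wholly below, so many genes with separate groups did not pass the test. With 3 libraries per group some genes separate without any difference between the leaves. How many do so was not computed.

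The number of calls depended on the libraries in the fit. Leaving out any 1 of the 6 libraries gave 5602 to 10131 higher and 5462 to 10762 lower genes. The lowest counts came from leaving out the whole of plant 2, with its libraries of all leaf groups. Without plant 2, which leaves the libraries that stood apart as 1 of 2 in each group, 1073 genes were called higher and 1316 lower. With the whole of plant 1 left out the counts were 5103 and 4316, and with the whole of plant 3 left out 7975 and 9366. Without the day 7 library of plant 1 they were 5602 and 6020, and without that of plant 2 they were 5672 and 5462. Without both the day 7 library of plant 3 and the day 0 library of plant 1, 12523 genes were higher and 10300 lower. Those calls included 7986 of the 9006 higher genes and 7788 of the 8726 lower genes. With only the 6 libraries of both groups in the fit, 3431 were higher and 4603 lower.

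How far each library had moved was measured on genes called without it. For each gene the mean of the other day 7 libraries was set at 100% and the mean of the other day 0 libraries at 0%, on a log2 scale of CPM (counts divided by the library total, which edgeR's TMM factors adjust). Only genes averaging at least 1 CPM were used. The left-out day 7 library of plant 1 had a median position of 106.1% over 4968 genes called higher, that of plant 2 107.9% over 4980 genes and that of plant 3 57.3% over 8685 genes. The left-out day 0 library of plant 1 stood at 43.8% over 8657 genes, that of plant 2 at -0.288% over 5476 genes and that of plant 3 at 0% over 5924 genes. Plants 1 and 2 on day 7 were therefore placed like each other, each on a scale whose 100% mean included plant 3. Plant 3 on day 7, placed against plants 1 and 2, was a little beyond the middle of its scale. On day 0, the 0% mean for plants 2 and 3 likewise included plant 1. Each library thus has its own genes and scale, and positions are not directly comparable between libraries.

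Genes called lower gave a different picture for the day 0 library of plant 1. Its median position over 8041 such genes was 18.6%, with quartiles of 3.52% and 35.9%, whereas plant 3 on day 7 stood at 58.2% over 10089 genes. The first-leaf libraries of day 0 from plants 2 and 3 stood at -0.0168% and 1.01%. For plant 1 on day 0, the shift towards day 7 was thus 43.8% in genes that rose and 18.6% in genes that fell. On a log2 scale the same number of added counts moves a low gene further than a high one. These shifts are therefore not directly comparable. Which condition sets these libraries apart was not tested.

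**Figure D1:**
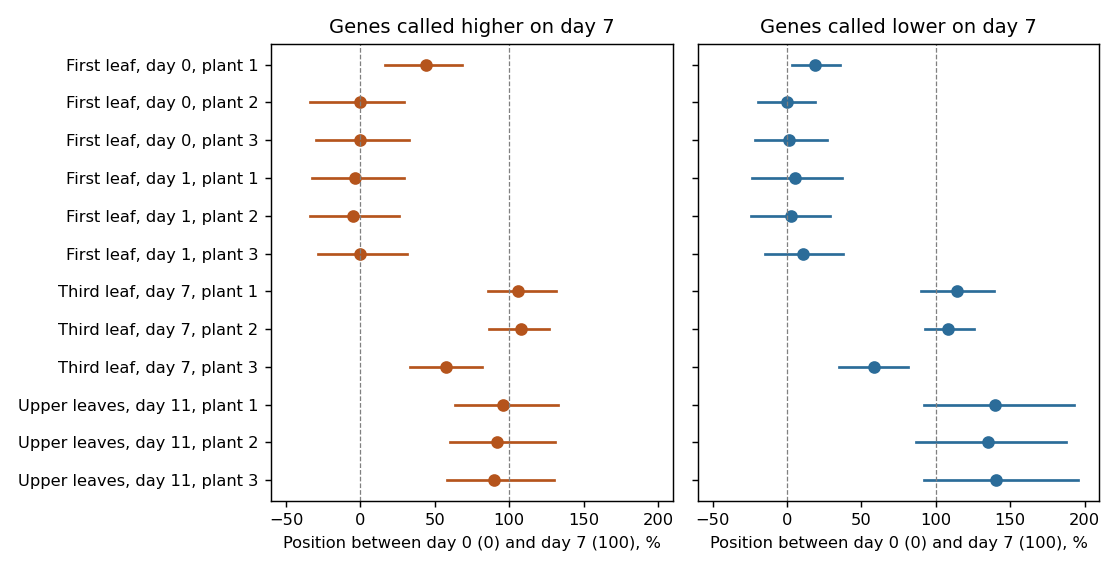
Median position (points) and quartiles (lines) of each leaf library on a scale with the day 7 mean at 100 and the day 0 mean at 0, for genes called higher (left) and lower (right) on day 7; day 0 and day 7 libraries were placed with genes and means that left them out, day 1 and day 11 libraries with those of all 6 libraries. Plant 3 on day 7 (57.3% and 58.2%) and plant 1 on day 0 (43.8% and 18.6%) lie between the groups.

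Leaves that the comparison did not use were placed on a similar scale, but with the genes called from all 6 libraries and with means of all 3 libraries per group, those that stood apart included. Their positions are therefore not directly comparable with those above. Upper leaves on day 11, a mix of leaves 3 to 5, stood at 96.03%, 91.5% and 89.97% in plants 1, 2 and 3 over the 7959 genes called higher. Over the 8278 genes called lower they stood at 139.7%, 134.9% and 140.6%. First leaves on day 1 stood at -3.33%, -4.99% and 0% over the genes called higher, and at 5.13%, 2.74% and 11.03% over those called lower. On that scale the median position of day 11 leaves was above 100% for genes called lower and just below it for genes called higher. These genes were chosen for a large difference between days 7 and 0, and the difference between days 11 and 7 was not tested here.

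The transcript pool of the third leaf on day 7 was spread over more genes. On day 7 the most abundant genes needed to reach 50% of a library's counts numbered 2619, 2379 and 1645 in plants 1, 2 and 3. On day 0 they numbered 1476, 1130 and 1138. The groups did not overlap, with 2214 ± 507 genes on day 7 and 1248 ± 197 on day 0 (SD, n = 3 each), and the libraries that stood apart were again the nearest to the other group. With 3 libraries per group, the smallest two-sided p of an exact permutation test is 0.1, so these values are given as levels. The 100 most abundant genes of each library took 13.2%, 13.8% and 18.7% of the counts on day 7, against 18.7%, 20.8% and 20.1% on day 0. Here the highest day 7 library, plant 3, lay just below the lowest day 0 library, plant 1.

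**Figure D2:**
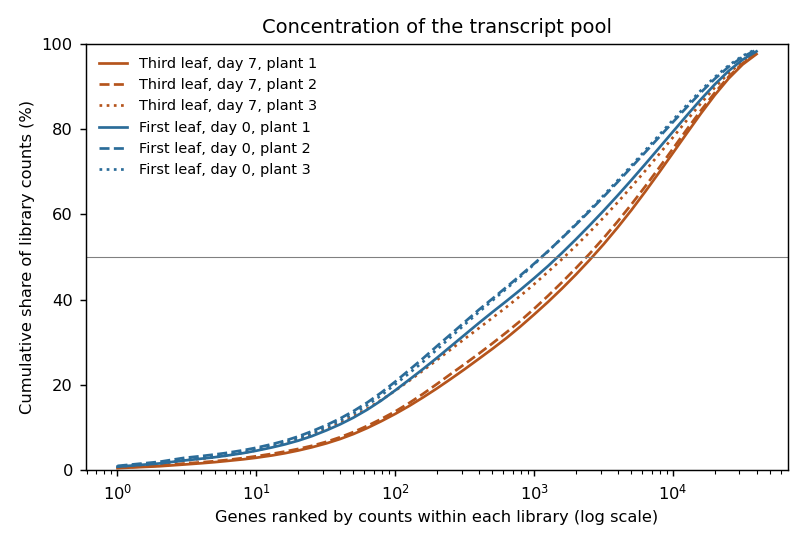
Cumulative share of library counts (vertical axis, %) against the rank of genes by counts (horizontal axis, log scale) in the 3 day 7 and 3 day 0 libraries. The day 7 curves of plants 1 and 2 run lowest, reaching 50% at 2619 and 2379 genes, and the curve of plant 3 on day 7 (1645 genes) runs close to that of plant 1 on day 0 (1476 genes).

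Among abundant genes, decreases outnumbered increases. Among 1346 genes with a mean over 100 CPM across the 6 libraries, 564 (41.9%) were lower and 174 (12.9%) higher on day 7, against 13.9% lower and 14.3% higher over all genes tested. Their median log2 fold change was -0.53. Among the 16076 genes between 10 and 100 CPM, 20.5% were higher and 24.1% lower. Among the 31226 genes between 1 and 10 CPM, 14.4% were higher and 12.3% lower. Among the 14193 genes under 1 CPM, 7.38% were higher and 3.16% lower, with a median log2 fold change of 0.33.

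The excess of decreases among abundant genes was also present without the day 7 library of plant 3 and the day 0 library of plant 1. Over 100 CPM, 56.7% of the genes were then lower and 16.0% higher. Low counts limit the calls in the lowest band, so the shares there are not comparable with those of abundant genes. CPM is relative to the library total as adjusted by the TMM factors, and total RNA per leaf was not analysed here.

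**Figure D3:**
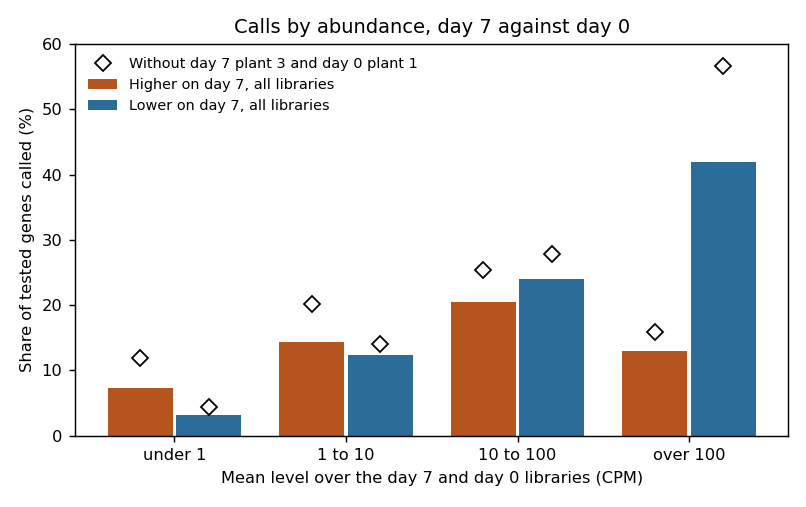
Share of tested genes called higher or lower on day 7 (bars, %) by mean level over the 6 libraries, with diamonds for the fit without day 7 plant 3 and day 0 plant 1. Over 100 CPM the share called lower is 41.9% and the share called higher 12.9%, while under 1 CPM they are 3.16% and 7.38%.

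Genes called lower held 19.8%, 21.6% and 27.9% of all counts in the day 7 libraries of plants 1, 2 and 3, against 41.5%, 44.8% and 44.2% in the day 0 libraries. Genes called higher held 25.9%, 23.9% and 15% on day 7, against 7.92%, 5.77% and 5.78% on day 0. These shares follow from the calls and describe their weight in the pool. In libraries the contrast did not use, genes called lower held 16.9%, 17.7% and 17.4% of the counts in day 11 leaves, against 40.5%, 41.1% and 40.3% in day 1 first leaves.

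Much of the most abundant set was common to both leaves. The 100 genes with the highest mean CPM on day 7 and the 100 highest on day 0 had 70 genes in common. Of the day 7 set, 13 were called higher and 32 lower, or 17 and 63 without the pair of libraries that stood apart. Of the day 0 set, 60 were called lower, and 90 were lower without that pair. Of the 1000 highest on day 0, 20 were called higher and 582 lower, or 29 and 752 without that pair. The day 0 set of 100 took 10.3%, 11.7% and 17.0% of the counts in the day 7 libraries of plants 1, 2 and 3, against 18.7%, 20.6% and 19.9% in the day 0 libraries. A set picked for high levels on day 0 is tilted towards decreases by that choice, so its count is a description.

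Genes are named by a fixed rule among called genes whose groups did not overlap. In each direction the first is the gene with the widest gap between the lowest library of one group and the highest of the other, and the second is the gene with the largest difference in mean CPM. Chromosomes are read from the identifiers, without a genome build. Near-identical copies may share or split reads, so the values of a single gene are uncertain to that extent.

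TraesCS3D02G219800 on chromosome 3D had the widest gap among rising genes. It stood at 48.4, 110.2 and 117.9 CPM on day 7 in plants 1, 2 and 3, against 0 counts in all 3 day 0 libraries. All day 7 libraries were far above day 0, and plant 3 on day 7 was the highest of them. Against a floor of 3 counts over the day 0 group (0.0608 CPM), the day 7 mean of 92.2 CPM ± 38.1 (SD, n = 3) was at least 1516-fold higher (edgeR adjusted p = 0.0017). Without plant 2 the adjusted p was 0.055, and over 15 alternatives in edgeR and DESeq2 it ran from 7.5e-13 to 0.055, with 14 of them under 0.05.

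The same gene was high in later leaves and low but present a day after iron withdrawal. It stood at 135.8, 188.3 and 121.3 CPM in day 11 leaves of plants 1, 2 and 3, against 0.237, 0.6 and 8.83 CPM in day 1 first leaves. The groups of day 11 and day 1 did not overlap (edgeR log2 fold change 5.49, SE 1.09, adjusted p = 0.003). Roots of day 11 held 11.3, 13.9 and 5.29 CPM, scaled over all 15 libraries. The genes with the next widest gaps lay on chromosomes 3B and 3A. The 3B gene stood at 32.6, 83.5 and 106.8 CPM on day 7, against 0 in each day 0 library, and the 3A gene at 22.9, 44.02 and 105.5 CPM against 0 in each. Whether these are subgenome copies of 1 gene was not tested.

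TraesCS7D02G161200 on chromosome 7D had the largest rise in CPM. It stood at 2515, 2191 and 266.1 CPM on day 7, against 35.1, 0 and 0 CPM on day 0, in plants 1, 2 and 3. The groups did not overlap, and the lowest day 7 and the highest day 0 values were those of the libraries that stood apart. It averaged 1657 ± 1216 CPM on day 7 against 11.7 ± 20.3 CPM on day 0 (SD, n = 3 each; edgeR log2 fold change 7.13, SE 2.00, adjusted p = 0.023). It ranked 22nd by mean CPM on day 7 and 14522nd on day 0. Without the day 0 library of plant 1 its day 0 counts were all 0, and the fitted log2 fold change of 18.1 (adjusted p = 0.0014) depends on the prior count.

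The call of TraesCS7D02G161200 ended without plant 2 (edgeR adjusted p = 0.14), without plant 3 (0.055) and with only the 6 libraries in the fit (0.11), and over 15 alternatives in edgeR and DESeq2 the adjusted p ran from 0.00022 to 0.14. It stood at 324.4, 217.7 and 336.4 CPM on day 11, against 2.73, 0 and 2.94 CPM on day 1 (edgeR log2 fold change 7.27, SE 2.04, adjusted p = 0.013 for day 11 against day 1). Its day 11 level was below the day 7 values of plants 1 and 2 and close to that of plant 3. Roots held 2.2, 0.313 and 2.38 CPM, scaled over all 15 libraries.

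TraesCS4D02G358100 on chromosome 4D had the widest gap among falling genes. It stood at 0, 0.0459 and 0 CPM on day 7, which is 1 count over the group, against 45.1, 25.4 and 228.4 CPM on day 0. The groups were far apart, and plant 3 was the highest day 0 library by a wide margin. Pooled over plants, day 0 exceeded day 7 by a ratio of 5938, and the exact (Clopper-Pearson) 95% interval of 1065 to 234598 covers counting error only (edgeR log2 fold change -12.24, SE 1.88, adjusted p = 0.0013). The call held in all 15 alternatives, with edgeR or DESeq2 adjusted p from 4.4e-12 to 0.038 and log2 fold changes from -14.48 to -10.36.

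In day 11 leaves TraesCS4D02G358100 stood at 0.845, 0.379 and 3.58 CPM, against 28.2, 8.95 and 93.9 CPM in day 1 first leaves (edgeR log2 fold change -4.78, SE 1.15, adjusted p = 0.0057). Plant 3 was again the highest library on both days, and each day 11 value was above the day 7 values. Whether the levels of days 11 and 7 differ was not tested here. Roots held 17.7, 7.94 and 21.7 CPM, scaled over all 15 libraries.

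TraesCS4B02G140300 on chromosome 4B, the most abundant gene of the day 0 leaf by mean CPM, had the largest fall in CPM. It stood at 4397, 5036 and 7155 CPM on day 7, against 8493, 11058 and 9721 CPM on day 0. The groups did not overlap, and plant 3 on day 7 and plant 1 on day 0 were the nearest of them. It averaged 5529 ± 1444 CPM on day 7 against 9758 ± 1283 CPM on day 0 (SD, n = 3 each), 0.567 times the day 0 level by the fit (edgeR log2 fold change -0.82, SE 0.23, adjusted p = 0.022). It was still the second most abundant gene on day 7.

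That call was close to its threshold. It was kept in 7 of 15 alternatives, over which the edgeR or DESeq2 adjusted p ran from 0.00014 to 0.35. It ended without plant 1 (0.13), without plant 2 (0.35), without the day 0 library of plant 2 (0.089) or of plant 3 (0.053) and without the day 7 library of plant 1 (0.063) or of plant 2 (0.083). It also ended with no filter on low counts (0.069) and with only the 6 libraries in the fit (0.11). The gene stood at 2262, 2838 and 2383 CPM in day 11 leaves, against 12708, 11836 and 10326 CPM in day 1 first leaves (edgeR log2 fold change -2.22, SE 0.24, adjusted p = 3e-05 for day 11 against day 1). Roots held at most 0.12 CPM, scaled over all 15 libraries.

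**Figure D4:**
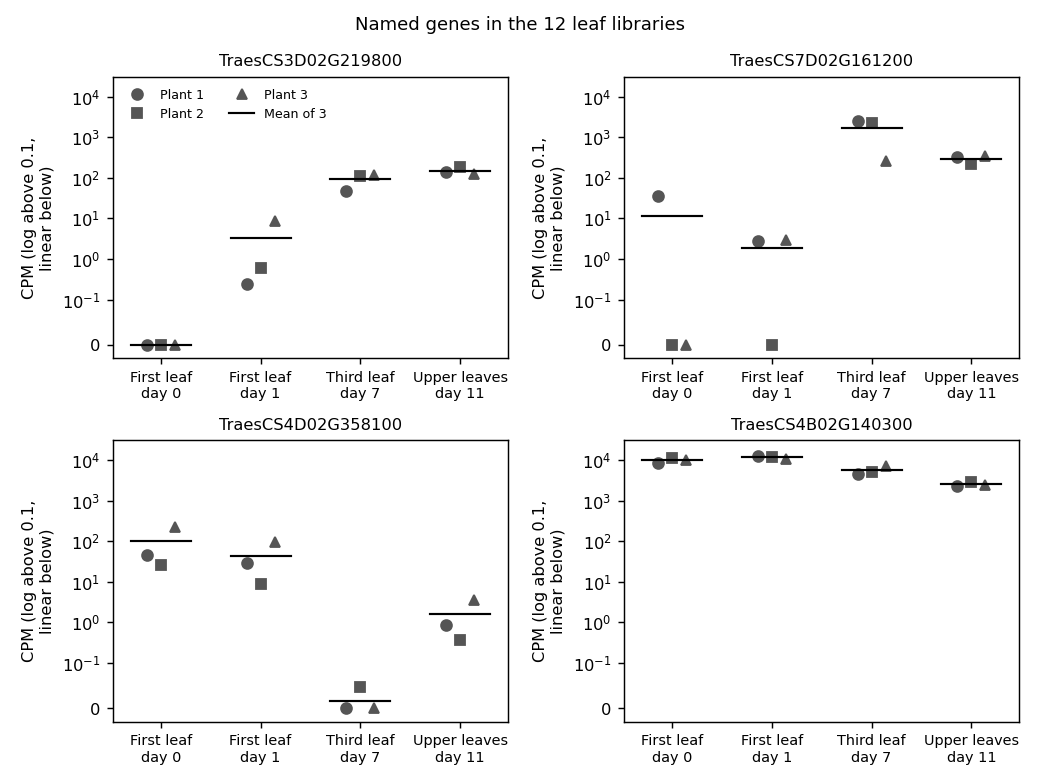
CPM of the 4 named genes in each leaf library (symbols by plant, bars for the mean of 3), on an axis that is logarithmic above 0.1 CPM and linear below it. TraesCS3D02G219800 and TraesCS7D02G161200 are higher and TraesCS4D02G358100 and TraesCS4B02G140300 lower in the third leaf on day 7 than in the first leaf on day 0.

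Some called genes had 0 counts in a whole group. Among them, 886 were higher on day 7 with 0 counts in all day 0 libraries, and 209 were lower with 0 counts in all day 7 libraries. How many of all genes tested were at 0 in either group was not computed, so these counts lack a background. The day 7 floor of 3 counts over the group was 0.0439 CPM and the day 0 floor 0.0608 CPM, so low genes read 0 more easily on day 0. Most of these genes were weakly expressed: 559 of the 886 had a mean of 1 CPM or more on day 7 and 42 a mean of 10 CPM or more. Of the 209, 99 had a mean of 1 CPM or more on day 0 and 2 a mean of 10 CPM or more.

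Other leaves and roots held many of the same genes. Roots did not enter the choice of these genes. Leaves of day 1 and day 11 did, through the filter on low counts and the fit. Of the 886, 712 had counts in all 3 day 7 libraries, and of the 209, 146 had counts in all 3 day 0 libraries. Counts in all 3 libraries of a group do not show that a gene passed that filter through the group. How many of the 886 and 209 needed a day 1 or day 11 library to pass is not given here. The counts in those leaves are therefore partly set by the choice and are no separate evidence. Of the 886 at 0 on day 0, 791 (89.3%) had counts in all 3 day 11 leaf libraries and 19 were at 0 in all of them. The median of the 886 was 1.02 CPM on day 11 beside 1.28 CPM on day 7 (scaled over all 15 libraries). In day 1 first leaves 136 had counts in all 3 libraries and 410 (46.3%) were at 0 in all. Roots had counts for 470 of them in all 3 libraries and 0 counts for 243. Of the 209 at 0 on day 7, 91 were at 0 in all day 11 leaves and 81 in all roots. In day 1 first leaves, 146 of the 209 had counts in all 3 libraries.

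The day 0 library of plant 1 held counts for more rising genes absent from the other day 0 libraries than plants 2 and 3 did. Of 1403 genes called higher that had 0 counts on day 0 in plants 2 and 3, 517 (36.8%) had counts in plant 1. The same count was 104 of 990 (10.5%) for plant 2 and 96 of 982 (9.78%) for plant 3. On day 7, of the genes called lower that were at 0 in the other two plants, 66 of 275 (24.0%) had counts in plant 3. The counts for plants 1 and 2 were 29 of 238 (12.2%) and 34 of 243 (13.99%). The same shares over all genes tested were not computed. On day 0, plant 1 also had the most genes with counts (68462, against 65257 and 62076 in plants 2 and 3). Its larger share is therefore not shown to be particular to rising genes. For plant 3 on day 7, the share is likewise not shown to be particular to falling genes.

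The calls were spread over all 21 chromosomes. The share called higher ran from 12.6% on 6B to 16.6% on 3D, beside 14.3% over all genes tested, and the share called lower from 13.1% on 5B to 14.9% on 1A, beside 13.9%. The median log2 fold change ran from 0.03 on 4B to 0.14 on 3D. Subgenomes D, A and B had 15.04%, 14.2% and 13.8% of their genes called higher and 13.7%, 14.1% and 13.9% called lower. In 6 of the 7 homoeologous groups, the sets of related A, B and D chromosomes, the D chromosome had the largest share of higher calls, and in 4 of the 7 without the pair of libraries that stood apart. All these shares lay near the background.

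**Figure D5:**
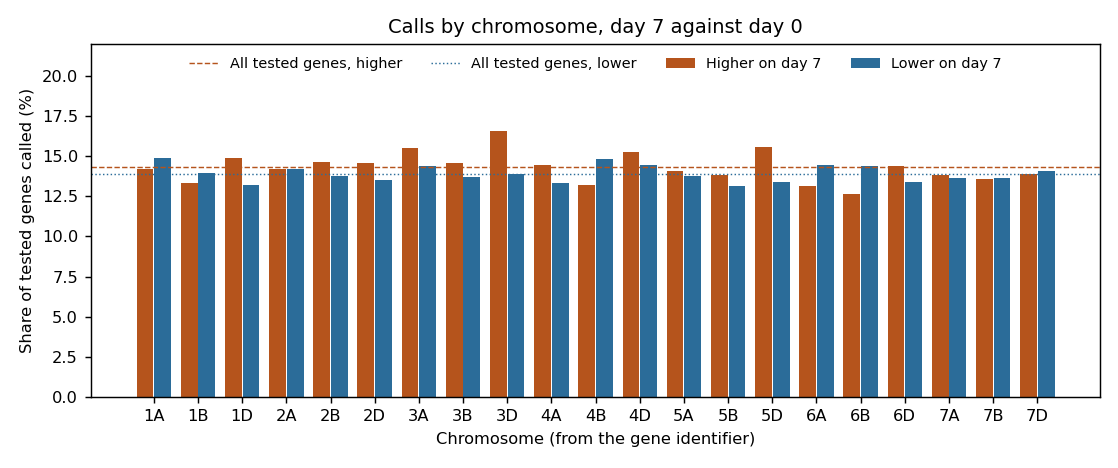
Share of tested genes called higher and lower on day 7 (bars, %) by chromosome, with dashed and dotted lines for all genes tested (14.3% and 13.9%). The share called higher is largest on 3D (16.6%) and smallest on 6B (12.6%).

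Position along the chromosome moved the shares little. When high-confidence genes were put into 10 equal bins of gene order, the share called higher ran from 14.6% in bin 2 to 17.6% in bin 1, and the share called lower from 13.1% in bin 4 to 16.0% in bin 5. High-confidence genes as a whole had 15.9% called higher and 14.6% lower. Bins 9 and 10 at the other end had 17.5% and 16.5% called higher. Differences between bins were not tested.

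Over all levels together, a smaller share of low-confidence than of high-confidence gene models was called. Above 10 CPM the share called either way was not smaller, and the balance of directions varied with level. Of 51457 high-confidence models 15.9% were higher and 14.6% lower on day 7, whereas of 11384 low-confidence models 7.29% were higher and 10.6% lower. Low-confidence models were also less abundant, with a median level of 1.14 CPM beside 4.92 CPM. Between 1 and 10 CPM, 8.76% of low-confidence models rose and 14.4% fell, beside 15.6% and 11.9% of the high-confidence models. Between 10 and 100 CPM the low-confidence shares were 12.7% higher and 37.8% lower, beside 20.8% and 23.4%. Under 1 CPM higher calls outnumbered lower ones in both classes, with 5.00% and 2.72% of low-confidence models beside 8.76% and 3.41%. Over 100 CPM lower calls outnumbered higher ones in both, with 10.0% higher and 45.0% lower among 40 low-confidence models, beside 13.0% and 41.8%. The difference between the classes was not tested.

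Neighbouring genes were sometimes called together. Runs of at least 3 tested high-confidence genes in a row that were all called higher numbered 265 and held 889 genes, 11.0% of the 8081 called higher on assigned chromosomes. Runs called lower numbered 215 and held 702 genes, 9.44% of 7438. Some runs arise without any clustering, since 15.9% and 14.6% of high-confidence genes were called, and how many was not computed, so these counts do not show that calls cluster. The longest run of increases had 9 genes with consecutive numbers on chromosome 5D, with log2 fold changes of 0.55 to 10.51. Their summed level was 2231, 1677 and 153.5 CPM on day 7, against 77.0, 12.2 and 20.6 CPM on day 0. Each of the 9 genes had separate groups, and all 9 were also called without the pair of libraries that stood apart.

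The 5D run was also higher in later leaves than in the other first leaves. It summed to 533.4, 305.8 and 389 CPM on day 11, against 19.9, 16.8 and 22.6 CPM on day 1. A single gene made up 31.2% of the sum on day 7 and the largest on day 0 made up 29.6%, so the run did not rest on 1 member. The longest run of decreases had 7 genes on chromosome 6A, with log2 fold changes of -4.43 to -1.42. It summed to 143.6, 179.9 and 324.9 CPM on day 7, against 973.3, 907.7 and 493.5 CPM on day 0. On day 11 it summed to 28.7, 38.02 and 38.7 CPM, against 2024, 2038 and 1601 CPM on day 1. Neighbouring duplicates can share reads, so the members of a run are not independent.

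The same direction was then examined in leaves that the comparison did not use. Upper leaves of day 11 against first leaves of day 1 share no library with it, although plants are the same and leaf position, age and iron supply change together there too. In that comparison 15292 genes were higher and 14652 lower, which is 24.3% and 23.3% of the genes tested and 47.7% together (edgeR, same fit). Of the 9006 genes higher on day 7, 6293 (69.9%) were also higher on day 11 against day 1 and 163 (1.81%) were lower. Of the 8726 genes lower on day 7, 7069 (81.01%) were also lower and 123 (1.41%) higher. The shared genes were 41.2% of all higher and 48.2% of all lower calls of day 11.

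Genes called in neither direction on day 7 were called higher at 19.7% and lower at 16.4% between days 11 and 1. The median log2 fold change of day 11 against day 1 was 1.33 in genes called higher on day 7, -1.57 in those called lower and 0.14 in the rest, beside 0.12 over all genes tested. When each comparison was fitted on its own 6 libraries only, so that not even the estimate of the spread was shared, 2685 of 3431 higher genes (78.3%) and 4208 of 4603 lower genes (91.4%) were called the same way. In those fits day 11 against day 1 had 18404 higher and 16860 lower genes, and genes not called on day 7 were called higher at 28.1% and lower at 25.3%. With the day 7 calls made without the pair of libraries that stood apart, the shares were 60.2% of 12280 and 74.7% of 10265, counting those of its 12523 and 10300 calls that were also tested in the 12-library fit.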

How the data were processed

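Unnormalized counts from featureCounts, on high- and low-confidence gene models, were deposited by the authors in 1 table covering the 15 libraries, per the labels. The submitters' processing notes name featureCounts 2.0.3, HISAT2 2.2.1, StringTie 2.2.3, Trim Galore 0.6.7, MultiQC 1.11 and FastQC 0.74. The build, the strand setting and how multi-mapped reads were handled: not given in the sources used here.

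All genes were tested together with edgeR 4.0.16 in R 4.3.3 (glmQLFit, glmQLFTest, TMM factors, filterByExpr), with the 12 leaf libraries in 1 fit, the group as the only term and a common biological coefficient of variation of 0.343. The SE was taken as the absolute log2 fold change over the root of the F statistic. Gaps and positions were computed on log2 CPM (prior count 2). The fit was tested on simulated counts with a single spread below that of these data and no libraries that stood apart. That test therefore does not cover the effect of such libraries on the calls.

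Same-numbered libraries come from the same plant per the labels. The tests reported ignore this pairing, and a fit with the plant as a block was an alternative. Deviations from the group means of the same plant correlated across genes at 0.22, -0.15 and 0.07 between days 7 and 0, against -0.33 to 0.28 for different plants. No 2 libraries of a group agreed within sampling noise (chi-square per degree of freedom 17.4 or more). The lowest value was that of plants 1 and 2 on day 0, beside 21.1 and 21.8 for the other day 0 pairs. On day 7 it was 21.4 for plants 1 and 2, against 70.8 and 44.6 for the pairs with plant 3.

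Genes were named by the widest gap and the largest CPM difference per direction. Comparisons, rules and gene groups were chosen with earlier results of these data known. The pathway and marker lists drawn up by gene description could not be applied.

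Alternatives were DESeq2 1.42.0, RLE factors, no filter, only the libraries of a contrast, the replicate block, and each plant or library left out. Floors and intervals cover counting error only.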

Additional observations from a re-analysis of the deposited data

How the results depend on the processing

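The counts of calls moved most with the libraries in the fit. Over the 9 fits that left out 1 plant or 1 library, genes higher on day 7 numbered 1073 to 10131 and lower genes 1316 to 10762, and by at least 2-fold 1026 to 7712 were higher and 1267 to 7455 lower. Over the 3 fits without 1 plant, day 11 against day 1 gave 8019 to 12683 higher and 9456 to 12886 lower genes, and the calls shared with day 7 numbered 822 to 5152 (higher) and 1210 to 7311 (lower). With only the libraries of a contrast, 3431 genes were higher on day 7, 2867 of them by at least 2-fold, and 4603 lower, 3790 of them by at least 2-fold, and 2685 and 4208 were shared with day 11. Without day 7 plant 3 and day 0 plant 1, a choice made after seeing the data, 12523 were higher, 9624 of them by at least 2-fold, and 10300 lower. The pairs are the same plants per the labels. With the replicate block 8249 genes were higher and 7971 lower, and the block ended no call of the 4 named genes and moved no count of calls by over 1.5 times. DESeq2 called 11025 higher and 10159 lower. Named genes kept their direction in each of their 60 alternatives and lost the call in 12, listed with each gene. The cause of these shifts was not tested. Depth limits calls under 1 CPM.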
